A study of Mus musculus with 8 samples.

Results

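Early lymphoid priming genes are followed here in mouse c-Kit+ bone marrow cells, a fraction rich in blood stem and progenitor cells. They are 10 genes (Rag1, Rag2, Dntt, Il7r, Lef1, Satb1, Ikzf1, Ikzf3, Tcf3 and Bcl11a), taken by symbol from the 23293 mouse genes measured, and each has 1 row. RNA sequencing gave 8 libraries, 2 individual mice in each of 4 genotype groups. The combined group carried Mx1-cre, a Flt3-ITD allele and a floxed Smc3 allele (Smc3 fl/del in the genotype field, het in the title). The Flt3-ITD group carried Mx1-cre and a Flt3-ITD allele, and the Smc3 del/+ group carried Mx1-cre and a single floxed Smc3 allele. The control group was Smc3 fl/+ without Mx1-cre. The cells of every group, controls included, were taken 4 weeks after PIpC, which induces the interferon-responsive Mx1 promoter that drives the recombinase in blood-forming and other cells. Cohesin, of which Smc3 is a core subunit, is a ring complex that shapes chromosome loops. Flt3-ITD is an activating duplication in the Flt3 receptor kinase, and whether 1 or both alleles carried it is not given in the labels. Because only the controls lacked Mx1-cre, genotype and recombinase cannot be told apart in any comparison with them.

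Lymphoid priming is the onset of lymphoid genes in progenitors that have not yet become B or T cells. It is known to involve transcription factors such as Ikaros and the E proteins, and the IL-7 receptor. The enzymes that cut and join antigen receptor gene segments also take part. In mouse bone marrow these genes mark lymphoid-primed and common lymphoid progenitors and the pro-B cells that follow them. E proteins, encoded by Tcf3 among others, bind the E box, a 6-base motif that reads CANNTG on either strand.

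The promoters of the 3 recombination enzymes and of the IL-7 receptor chain are shown because these genes, with Lef1, varied most between the groups. Each is the RefSeq window of 300 bases on mouse build GRCm38.p6, with 250 bases before and 50 after the gene's start, written 5′ to 3′ on the gene's strand with E boxes in capitals. Rag1 lies at chr2:101649483-101649782 on the minus strand, Rag2 at chr2:101624462-101624761 on the plus strand, Dntt at chr19:41029025-41029324 on the plus strand and Il7r at chr15:9529827-9530126 on the minus strand.
Rag1: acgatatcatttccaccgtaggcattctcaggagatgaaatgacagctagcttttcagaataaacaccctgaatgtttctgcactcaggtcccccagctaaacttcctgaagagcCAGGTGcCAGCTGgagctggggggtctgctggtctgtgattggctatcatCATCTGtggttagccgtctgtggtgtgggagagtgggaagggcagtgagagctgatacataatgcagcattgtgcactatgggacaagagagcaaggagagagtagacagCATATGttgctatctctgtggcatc
Rag2: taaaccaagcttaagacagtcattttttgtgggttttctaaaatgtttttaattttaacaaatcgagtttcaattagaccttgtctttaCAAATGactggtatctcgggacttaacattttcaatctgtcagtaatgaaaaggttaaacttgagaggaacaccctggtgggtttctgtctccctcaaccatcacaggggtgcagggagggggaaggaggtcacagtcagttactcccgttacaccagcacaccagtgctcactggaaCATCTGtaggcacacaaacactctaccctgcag
Dntt: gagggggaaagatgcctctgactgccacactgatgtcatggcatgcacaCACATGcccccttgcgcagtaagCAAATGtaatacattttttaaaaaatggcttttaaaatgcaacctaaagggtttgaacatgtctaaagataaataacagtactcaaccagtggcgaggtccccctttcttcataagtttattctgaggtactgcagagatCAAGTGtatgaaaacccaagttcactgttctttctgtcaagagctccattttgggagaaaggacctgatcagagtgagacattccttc
Il7r: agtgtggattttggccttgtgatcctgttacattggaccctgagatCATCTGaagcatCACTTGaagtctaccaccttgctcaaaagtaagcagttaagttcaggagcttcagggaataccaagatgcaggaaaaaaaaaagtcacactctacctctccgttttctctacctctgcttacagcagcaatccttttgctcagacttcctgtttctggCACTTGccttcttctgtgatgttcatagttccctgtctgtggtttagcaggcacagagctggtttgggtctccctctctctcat
The Rag1 window held 4 E boxes, and Rag2, Dntt and Il7r held 2, 3 and 3. At least 1 E box was present in 72.1% of all 27025 windows of this length. The forms CAGCTG or CAGGTG, a subset of E boxes searched on both strands, occurred 2 times in Rag1, a single base apart, and in none of the other 3 windows; 32.6% of all windows held one. GGGAA, the core bound by Ikaros, occurred 1 time each in Rag1, Rag2 and Dntt and 2 times in Il7r when both strands were read, against 62.3% of all windows with at least 1. These are matches of letters and not measured binding.

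Levels are FPKM, fragments scaled by transcript length and library size. Between 10490 and 10843 mouse genes reached 1 FPKM in a library, and the depth in reads is unknown. Combined replicate 2 stood apart, with 11076 genes listed at 0 against 8878 to 9907 in the other 7 libraries, and the log2 difference between the combined mice had an SD over genes of 0.701, against 0.350 to 0.409 in the other groups. An exact 0 can be a failed estimate in such tables: 3 or 4 of 115 ribosomal protein and proteasome genes were at 0 or 0.01 FPKM in each library. Levels at 0 or 0.01 FPKM are therefore called listed at 0. Smc3 was at 103 and 136 FPKM in the combined group, 94.7 and 89.9 in Flt3-ITD, 135 and 133 in Smc3 del/+ and 119 and 112 in controls. Its mean was 119 FPKM in the combined group against 92.3 in Flt3-ITD, and 134 in Smc3 del/+ against 115 in controls, so the target gene was not lower with the Smc3 deletion label and the groups are called by their labels only. A gene-level FPKM does not show which exons were transcribed. Kit, the marker used for selection, was at 40.1 and 37.4 FPKM in combined mice and 48.1 and 57.6 in Flt3-ITD. Its level was 49.5 and 48.9 FPKM in Smc3 del/+ and 60.1 and 54.9 in controls, so the combined mice were lowest. Xist was at 500 to 657 FPKM in combined and control libraries and below 1 FPKM in the Flt3-ITD and Smc3 del/+ libraries, so that sex and genotype cannot be told apart in Flt3-ITD or Smc3 del/+ against control, or in the combined group against either of them. The interaction below follows the Xist pattern and cannot be told apart from sex either. The combined group against control has 1 Xist pattern, and the averaged Flt3-ITD and Smc3 effects are balanced for it. These averaged effects are not balanced for Mx1-cre, which every library with a Flt3-ITD or Smc3 deletion label carried and the controls lacked.

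**Figure D1:**
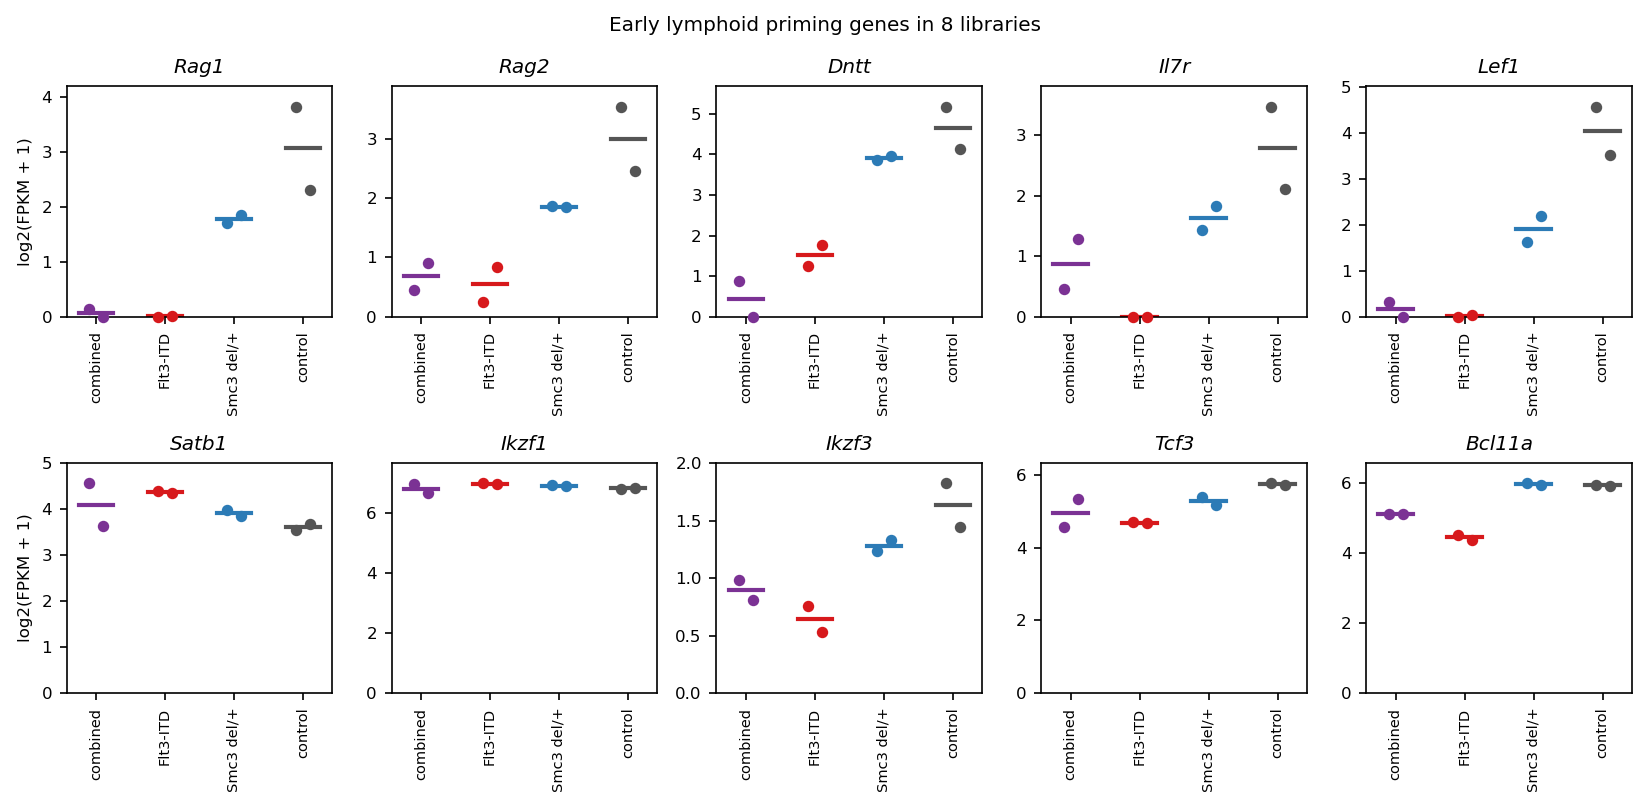
Level of each gene as log2(FPKM + 1), with 1 point per mouse and a bar at the mean of 2 mice, in the combined group, Flt3-ITD, Smc3 del/+ and control. Rag1, Rag2, Dntt, Il7r and Lef1 were lowest in the groups with Flt3-ITD and highest in control, while Ikzf1 lay near 7 in all 8 libraries.

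Transcripts of the antigen receptor recombination machinery were low in both groups with Flt3-ITD. Rag1, the subunit of the recombinase that cuts DNA, was at 0.0991 and 0 FPKM in combined mice, listed at 0 in both Flt3-ITD mice, at 2.26 and 2.61 in Smc3 del/+ and at 13.2 and 3.95 in controls. Rag2, its obligate partner, was at 0.373 and 0.876 FPKM in combined mice, 0.189 and 0.795 in Flt3-ITD, 2.66 and 2.60 in Smc3 del/+ and 10.7 and 4.52 in controls. Dntt, the terminal transferase that adds bases at the joints, was at 0.830 and 0 FPKM in combined mice, 1.39 and 2.43 in Flt3-ITD, 13.6 and 14.6 in Smc3 del/+ and 35.1 and 16.5 in controls. For all 3 genes the controls were highest, Smc3 del/+ came next without overlapping them, and both groups with Flt3-ITD lay below. Only for Dntt did the combined and Flt3-ITD mice not overlap, with the combined mice lower.

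In Flt3-ITD against control, Rag1 was lower (adjusted p = 0.00582, limma), and no size is given against a group listed at 0. Rag2 fell by 2.46 ± 0.398 on the log2(FPKM + 1) scale (SE, n = 2 each; adjusted p = 0.00800, limma) and Dntt by 3.13 ± 0.410 (adjusted p = 0.00414, limma). The combined group against control gave -2.998 for Rag1 (adjusted p = 0.00917, limma), -2.32 for Rag2 (adjusted p = 0.0134, limma) and -4.22 for Dntt (adjusted p = 0.00310, limma). This scale understates changes of genes at low levels. Adjusted p-values cover the 10854 genes tested, with a threshold of 0.05. Single genes compared 2 against 2 cannot go below p = 0.333 in an exact permutation test, so the calls rest on the spread shared across groups and genes. In such bulk samples, fewer cells of a type and less RNA per cell cannot be told apart.

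Dntt was called in both comparisons with any 1 of the 8 libraries left out. Rag1 lost its call in Flt3-ITD against control without Flt3-ITD replicate 1 (adjusted p = 0.0531, limma), and in the combined group without control replicate 1 (adjusted p = 0.0508, limma). Rag2 lost it in Flt3-ITD without control replicate 1 or Flt3-ITD replicate 1, with adjusted p up to 0.0720, and in the combined group without control replicate 1 (adjusted p = 0.0963, limma). Another gene, B230118H07Rik, shares exon sequence with Rag1 on the same strand and with Rag2 on the opposite strand in the GENCODE annotation, and whether the authors counted by strand was not given in the sources used here. It was at 13.3 and 33.1 FPKM in combined mice, 17.3 and 15.6 in Flt3-ITD, 19.9 and 21.0 in Smc3 del/+ and 19.7 and 17.2 in controls. The low Rag1 and Rag2 values in Flt3-ITD thus stood beside a neighbour that was not low there. Counting by strand could separate its reads from those of Rag2 but not from those of Rag1. Its share in the reads of either gene was not tested.

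The receptor followed the enzymes. Il7r, the alpha chain of the IL-7 receptor on which mouse B cell progenitors depend, was at 0.379 and 1.44 FPKM in combined mice, listed at 0 in both Flt3-ITD mice, at 1.69 and 2.55 in Smc3 del/+ and at 10.1 and 3.31 in controls. The 4 groups did not overlap. Flt3-ITD was lower than control (adjusted p = 0.00952, limma), again with no size given. The combined group was lower than control by 1.92 ± 0.476 on the log2(FPKM + 1) scale (adjusted p = 0.0416, limma). Both calls were fragile. The call in Flt3-ITD was lost without control replicate 1 or either Flt3-ITD mouse (adjusted p up to 0.0742, limma). In the combined group it was lost in 7 of 8 such refits, all but the one without combined replicate 2 (adjusted p from 0.0135 to 0.237, limma).

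Lef1 showed the largest difference in Flt3-ITD against control among the 8 genes given a size. It encodes an HMG-box factor that partners beta-catenin and acts in pro-B and T cell development. Its level was 0.237 and 0 FPKM in combined mice, 0 and 0.0269 in Flt3-ITD, 2.09 and 3.54 in Smc3 del/+ and 22.7 and 10.5 in controls. Controls stood above Smc3 del/+ and Smc3 del/+ above both groups with Flt3-ITD, which overlapped each other. Lef1 fell by 4.02 ± 0.379 in Flt3-ITD (adjusted p = 0.00150, limma) on the log2(FPKM + 1) scale. The combined group against control gave -3.89 ± 0.379 (adjusted p = 0.00310, limma). Both calls held with any 1 library left out.

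Bcl11a, a zinc-finger repressor required for B cell development in the mouse, differed at a far higher level. It was at 34.0 and 33.7 FPKM in combined mice, 21.96 and 19.96 in Flt3-ITD, 63.0 and 60.8 in Smc3 del/+ and 61.6 and 59.8 in controls. Its mean was 33.9 ± 0.232 FPKM in the combined group, 21.0 ± 1.41 in Flt3-ITD, 61.9 ± 1.55 in Smc3 del/+ and 60.7 ± 1.25 in controls (SD, n = 2 each). Flt3-ITD was lowest, the combined group stood between without overlap, and Smc3 del/+ overlapped control. Bcl11a fell by 1.49 ± 0.119 in Flt3-ITD (adjusted p = 0.000848, limma) and by 0.82 ± 0.119 in the combined group (adjusted p = 0.00789, limma) on the log2(FPKM + 1) scale. In Flt3-ITD the call held with any 1 library left out, and in the combined group it was lost without either control mouse (adjusted p up to 0.0932, limma).

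Tcf3, which encodes the E proteins E12 and E47, was at 22.7 and 39.97 FPKM in combined mice, 25.1 and 24.7 in Flt3-ITD, 41.6 and 35.5 in Smc3 del/+ and 53.8 and 52.1 in controls. Controls stood above all other libraries, while the combined mice lay far apart and overlapped both Flt3-ITD and Smc3 del/+. Tcf3 fell by 1.06 ± 0.240 in Flt3-ITD against control (adjusted p = 0.0243, limma). The combined group gave -0.79 ± 0.240, which did not pass (adjusted p = 0.0747, limma). Ikzf3, which encodes the Ikaros relative Aiolos of later B cell stages, was low everywhere, at 0.978 and 0.749 FPKM in combined mice, 0.690 and 0.448 in Flt3-ITD, 1.36 and 1.51 in Smc3 del/+ and 2.54 and 1.72 in controls. The 4 groups did not overlap, with Flt3-ITD lowest. Ikzf3 fell by 0.99 ± 0.264 in Flt3-ITD (adjusted p = 0.0400, limma), and the combined group gave -0.74 ± 0.264 (adjusted p = 0.115, limma). The Flt3-ITD calls of Tcf3 and Ikzf3 were both lost in 6 of 8 refits with 1 library left out, all but those without a combined mouse, with adjusted p up to 0.149 for Tcf3 and 0.254 for Ikzf3 (limma).

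Ikzf1 and Satb1 did not share the low levels in the main table. Ikzf1, the founding Ikaros factor, was the most abundant of the 10 genes, at 123 and 100.4 FPKM in combined mice, 126 and 124 in Flt3-ITD, 121 and 118 in Smc3 del/+ and 111 and 114 in controls. The Flt3-ITD mice were highest and the combined mice spanned the controls. Flt3-ITD against control gave 0.15 (95% interval -0.16 to 0.47, adjusted p = 0.464, limma) and the combined group gave -0.02 (95% interval -0.33 to 0.29, adjusted p = 0.954, limma) on the log2(FPKM + 1) scale. In the table that the authors normalized further, where the median of all genes was itself -0.58, the Flt3-ITD difference of Ikzf1 was -0.36 (adjusted p = 0.188, limma). In that table Ikzf1 was called lower in the combined group against control (-0.70, adjusted p = 0.0219, limma) and with Flt3-ITD averaged over both Smc3 labels (-0.40, adjusted p = 0.0432, limma), where the medians of all genes were -0.67 and -0.44. In both of these comparisons 9 of the 10 genes were called lower there. Of all 11027 genes tested in that table, 5857 and 4831 were called lower too, in the same order.

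Satb1, a chromatin organiser needed in thymocytes and active in lymphoid-primed progenitors, was at 22.5 and 11.3 FPKM in combined mice, 19.9 and 19.3 in Flt3-ITD, 14.8 and 13.5 in Smc3 del/+ and 10.7 and 11.8 in controls. Flt3-ITD and Smc3 del/+ libraries both lay above the controls, and combined replicate 2 lay among them. The difference for Flt3-ITD was 0.75 ± 0.277 (95% interval 0.11 to 1.40) and did not pass (adjusted p = 0.1002, limma). It passed without either combined mouse (adjusted p = 0.00247 without replicate 1 and 0.00235 without replicate 2) and in a fit of the 2 groups alone (adjusted p = 0.00824, limma). The sign for the combined group and for Smc3 del/+ turned with the table: against control these were 0.48 and 0.31 in the main table and -0.23 and -0.08 in the table the authors normalized further.

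In all, 8 of the 10 genes were lower in Flt3-ITD than in control and 0 were higher, where 9.50% of all genes tested were called lower, 8.51% higher and 18.0% either way. In 8 genes both Flt3-ITD libraries lay below both controls and in 2 (Satb1 and Ikzf1) above, as was so for 35.2% and 34.3% of all genes; in the further normalized table Ikzf1 lay below and Satb1 overlapped. The median difference was -1.98 over the 10 genes, Rag1 and Il7r included at their fitted values, and -0.00676 over all genes tested. Rag1, Lef1 and Ikzf3 average under 1 FPKM without the controls, so they were tested through the group where they are high. Against the mean of the controls, the Flt3-ITD means stood at 6.47% for Rag2, 7.40% for Dntt, 26.7% for Ikzf3, 34.5% for Bcl11a and 47.0% for Tcf3. Against control replicate 2 alone these means stood at 10.9% for Rag2 and 11.6% for Dntt. The 2 Flt3-ITD mice differed for Rag2, at 2.49% and 10.5% of the control mean. The Flt3-ITD means stood at 111% for Ikzf1 and 174% for Satb1. The number of the 10 genes called was lowest without Flt3-ITD replicate 1 and highest without either combined mouse. Without either combined mouse, calls over all genes were also most frequent.

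**Figure D2:**
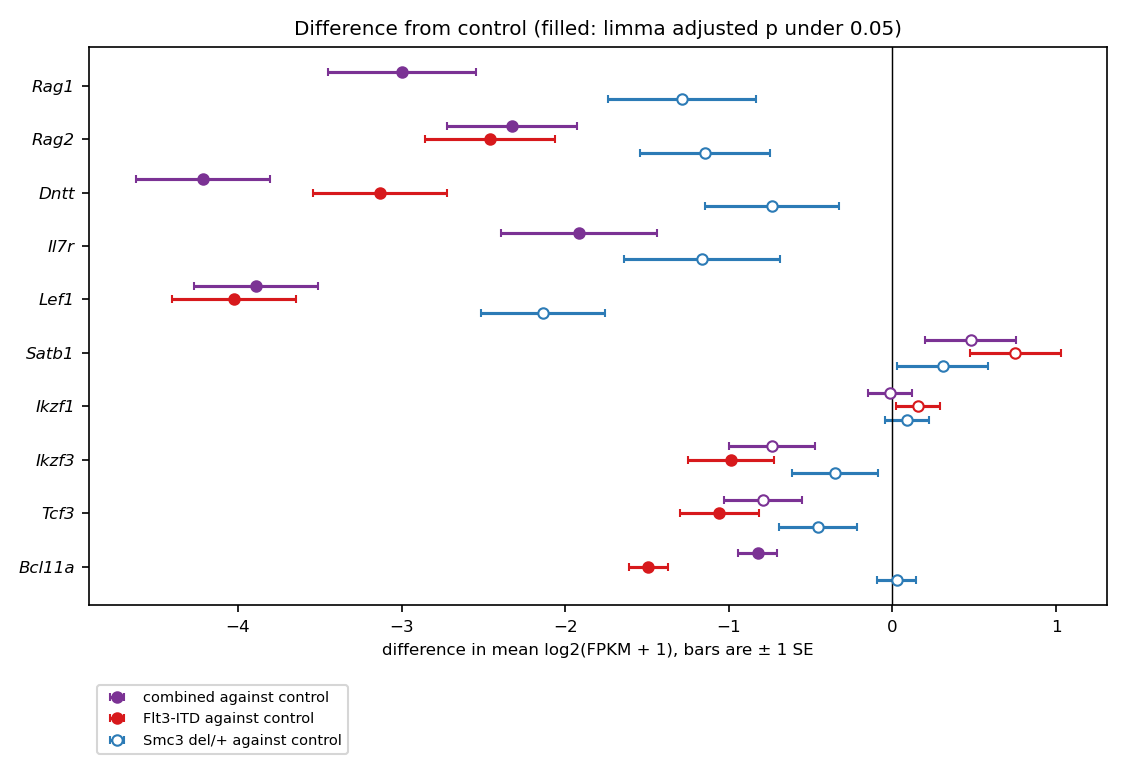
Difference in mean log2(FPKM + 1) from control for the combined group, Flt3-ITD and Smc3 del/+, with bars of 1 SE; filled points passed an adjusted p of 0.05 (limma), and Rag1 and Il7r have no point for Flt3-ITD, where they were listed at 0. Flt3-ITD passed for 8 genes, 6 of them drawn, and the combined group for 6, Smc3 del/+ for 0, and Satb1 lay right of 0 in all 3 groups.

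In the combined group 6 of the 10 genes were lower than in control and 0 higher (Rag1, Rag2, Dntt, Il7r, Lef1 and Bcl11a), against 6.38% of all genes called lower, 5.41% higher and 11.8% either way. In 8 genes both combined libraries lay below both controls, as in 26.8% of all genes, the exceptions being Satb1 and Ikzf1; in 0 genes both lay above, against 25.8%. Compared with Smc3 del/+, from which it also differs in Xist, 3 genes were lower in the combined group, against 2.89% of all genes called lower and 5.44% either way. These were Dntt with -3.48 ± 0.410 (adjusted p = 0.00823, limma), Lef1 with -1.75 ± 0.379 (adjusted p = 0.0420, limma) and Bcl11a with -0.85 ± 0.119 (adjusted p = 0.0137, limma). Both combined libraries were below both Smc3 del/+ libraries in 7 genes, where this held for 25.7% of all genes. Dntt and Bcl11a lost this call without either Smc3 del/+ mouse (adjusted p up to 0.0946 and 0.154, limma), and Lef1 kept it only in the 2 refits without a combined mouse (adjusted p up to 0.298, limma). With only the 2 groups compared in the fit, 0 of the 10 genes passed in the combined group against either control or Smc3 del/+. The count against control was lowest without control replicate 1 and highest without combined replicate 2. Without combined replicate 2, calls over all genes were also most frequent. Control and Smc3 del/+ libraries are shared by these comparisons, so they are not independent of those above.

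The combined group against Flt3-ITD, which differ in the Smc3 label and in Xist, gave no call among the 10 genes, against 0.286% of all genes tested (0.240% higher and 0.0461% lower). The combined group was higher without overlap for Il7r, Ikzf3 and Bcl11a and lower for Dntt and Ikzf1; 17.1% of all genes were higher and 16.8% lower in this way. Bcl11a came closest, with 0.67 ± 0.119 on the log2(FPKM + 1) scale (95% interval 0.39 to 0.95, adjusted p = 0.0984, limma), and passed without either combined mouse. Dntt gave -1.08 ± 0.410 (95% interval -2.04 to -0.13, adjusted p = 0.398, limma), and passed only without combined replicate 1, the lone mouse then being listed at 0. Without combined replicate 1, the combined group rested on the library that stood apart. More of the 10 genes then passed, as did far more of all genes tested. Rag1 and Lef1 were at 0.237 FPKM or less in these 4 libraries, and no difference is given for them.

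The libraries labelled Smc3 del/+ lay below the controls in 7 of the 10 genes (Rag1, Rag2, Dntt, Il7r, Lef1, Ikzf3 and Tcf3) and above them in Satb1 and Ikzf1, where 23.2% of all genes lay lower and 24.2% higher. None of the 10 passed the test, and 0.00921% of all genes did, a single gene, Xist; 494 of 10854 had an unadjusted p under 0.05. Lef1 had the largest difference, -2.14 ± 0.379 (95% interval -3.02 to -1.25, adjusted p = 0.399, limma). It passed in the authors' normalized table (adjusted p = 0.0420, limma), in which the median of all genes was itself -0.38. Rag1 gave -1.29 (95% interval -2.34 to -0.23) and Rag2 -1.15 (95% interval -2.07 to -0.22), both with adjusted p of 0.935 or more (limma). Bcl11a gave 0.03 (95% interval -0.25 to 0.30), a difference whose sign turned under upper-quartile scaling and in the normalized table. The Smc3 del/+ mean stood at 17.01% of the control mean for Lef1, 28.5% for Rag1, 31.6% for Il7r, 34.6% for Rag2 and 54.6% for Dntt. With control replicate 2 as the lone control, these differences shrank to -0.53 for Rag1, -0.61 for Rag2, -0.22 for Dntt and -0.48 for Il7r, and to -1.61 for Lef1.

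Averaged over both Smc3 labels, 8 of the 10 genes were lower with Flt3-ITD and 0 higher, against 12.8% of all genes called lower, 10.9% higher and 23.8% either way. In this additive fit, Dntt gave -3.31 ± 0.280 (adjusted p = 0.000773, limma), Lef1 -2.89 ± 0.465, Rag1 -2.38 ± 0.384, Rag2 -1.82 ± 0.347 and Bcl11a -1.17 ± 0.137 on the log2(FPKM + 1) scale. These 5 kept the call with any 1 library left out. Il7r (-1.77, adjusted p = 0.0281), Tcf3 (-0.70, adjusted p = 0.0379) and Ikzf3 (-0.69, adjusted p = 0.0478) kept it in 2 of 8 refits each (limma). The libraries labelled with the Smc3 deletion against those without it, averaged over both Flt3 genotypes, gave 0 calls among the 10 genes and 0.00% among all genes (limma), with 525 genes at an unadjusted p under 0.05. Dntt had the smallest p of the 10 there, with -0.91 ± 0.280 (adjusted p = 0.902, limma). The interaction, the difference between Smc3 labels in Flt3-ITD cells minus that without Flt3-ITD, which matches the Xist pattern, gave 0 calls among the 10 genes, against 0.0369% of all genes (0.0184% in each direction). Lef1, near 0 in all 4 libraries with Flt3-ITD, came closest (2.27 ± 0.535, adjusted p = 0.268, limma). More of the 10 genes passed without combined replicate 1, as did far more of all genes tested.

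The 2 control mice differed by as much as some groups did, and the difference was uneven among the 10 genes. Control replicate 1 over replicate 2 was 3.33 for Rag1, 3.05 for Il7r, 2.36 for Rag2, 2.17 for Lef1, 2.12 for Dntt and 1.48 for Ikzf3. It was 1.03 for both Tcf3 and Bcl11a, 0.979 for Ikzf1 and 0.906 for Satb1. Some genes of the pre-B cell receptor and B lineage list also differed between these mice. The ratio was 3.04 for Igll1, 2.91 for Ebf1, 2.57 for Pax5 and 2.26 for Cd79a. Others of that list did not differ in this way. In control replicates 1 and 2, Bank1 was at 2.59 and 3.33 FPKM, Syk at 40.2 and 43.5 and Cd24a at 649 and 601. The 5 genes of the recombinase, the receptor and Lef1 summed to 1.92 and 2.31 FPKM in combined mice, 1.58 and 3.26 in Flt3-ITD, 22.3 and 25.9 in Smc3 del/+ and 91.7 and 38.8 in controls.

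**Figure D3:**
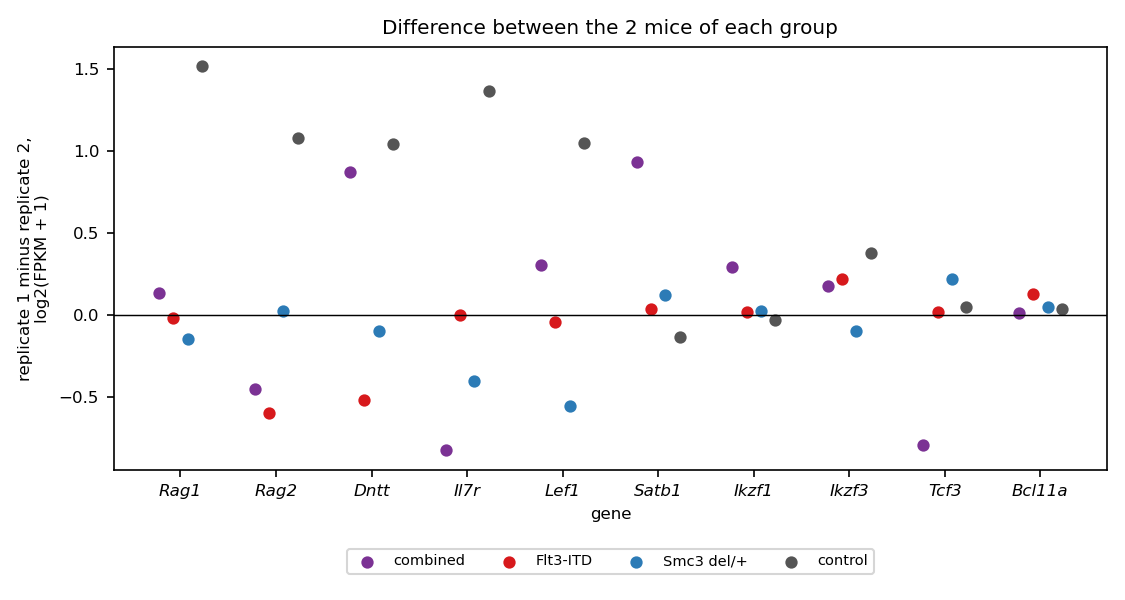
Replicate 1 minus replicate 2 in log2(FPKM + 1) for each gene, with 1 point per group. The controls lay above 1 for Rag1, Rag2, Dntt, Il7r and Lef1 and near 0 for Satb1, Ikzf1, Tcf3 and Bcl11a, while the combined group lay above 0 for Satb1 and Dntt and below it for Il7r and Tcf3.

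Some sets of markers of other cells differed between these groups too, and others did not. The 8 B lineage markers summed to 6.12 and 10.7 FPKM in combined mice, 5.06 and 9.56 in Flt3-ITD, 30.9 and 45.6 in Smc3 del/+ and 189.6 and 71.9 in controls; 7 of 8 were lower in Flt3-ITD and 6 of 8 in the combined group than in control. Pax5, which defines committed B cells, was listed at 0 in all 4 libraries with Flt3-ITD and above 0 in the other 4. The 7 T lineage markers, none of which reached the filter, summed to 0.559 to 3.25 FPKM with Flt3-ITD and 4.28 to 7.44 without it, and Cd3g was listed at 0 in 4 libraries. The 8 erythroid markers summed to 67.7 to 520 FPKM with Flt3-ITD and 1393 to 1582 without it, and 6 of the 7 tested were lower in Flt3-ITD than in control; Hba-a1 was listed at 0 in 6 libraries and Hbb-b1 in 7. The 5 megakaryocyte markers summed to 15.1 and 57.8 FPKM in combined mice, 15.99 and 20.99 in Flt3-ITD, 65.0 and 72.8 in Smc3 del/+ and 187 and 182 in controls, and 5 of 5 were lower in Flt3-ITD and 4 of 5 in the combined group than in control. Of the tested markers, 2 of 4 monocyte-macrophage and 2 of 3 NK genes were lower in Flt3-ITD, and 1 of each in the combined group. The other tested genes of these sets, Csf1r (1.04), Cd68 (0.76) and Nkg7 (0.56), differed upward in Flt3-ITD without passing. The monocyte-macrophage markers summed to 50.6 and 69.2 FPKM in Flt3-ITD and 37.7 and 58.7 in controls. The NK markers summed to 179 and 180 FPKM in Flt3-ITD and 133 and 122 in controls. The 8 granulocyte markers summed to 138054 to 223567 FPKM with Flt3-ITD and 79947 to 108470 without it. Of these, 2 were higher in Flt3-ITD than in control and 0 passed in the combined group. The 4 progenitor markers summed to 120 to 153 FPKM with Flt3-ITD and 103 to 119 without it, and 0 passed in Flt3-ITD against control. In the combined group against control, Cd34 was higher (0.73 ± 0.169) and Kit lower (-0.56 ± 0.136; adjusted p = 0.0338 and 0.0391, limma). Of 2 tested plasma cell markers, 1 was higher in Flt3-ITD than in control and 0 passed in the combined group. Of 2 tested plasmacytoid dendritic markers, 0 passed in either group. The part of these shifts in the levels of the 10 genes was not tested.

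**Figure D4:**
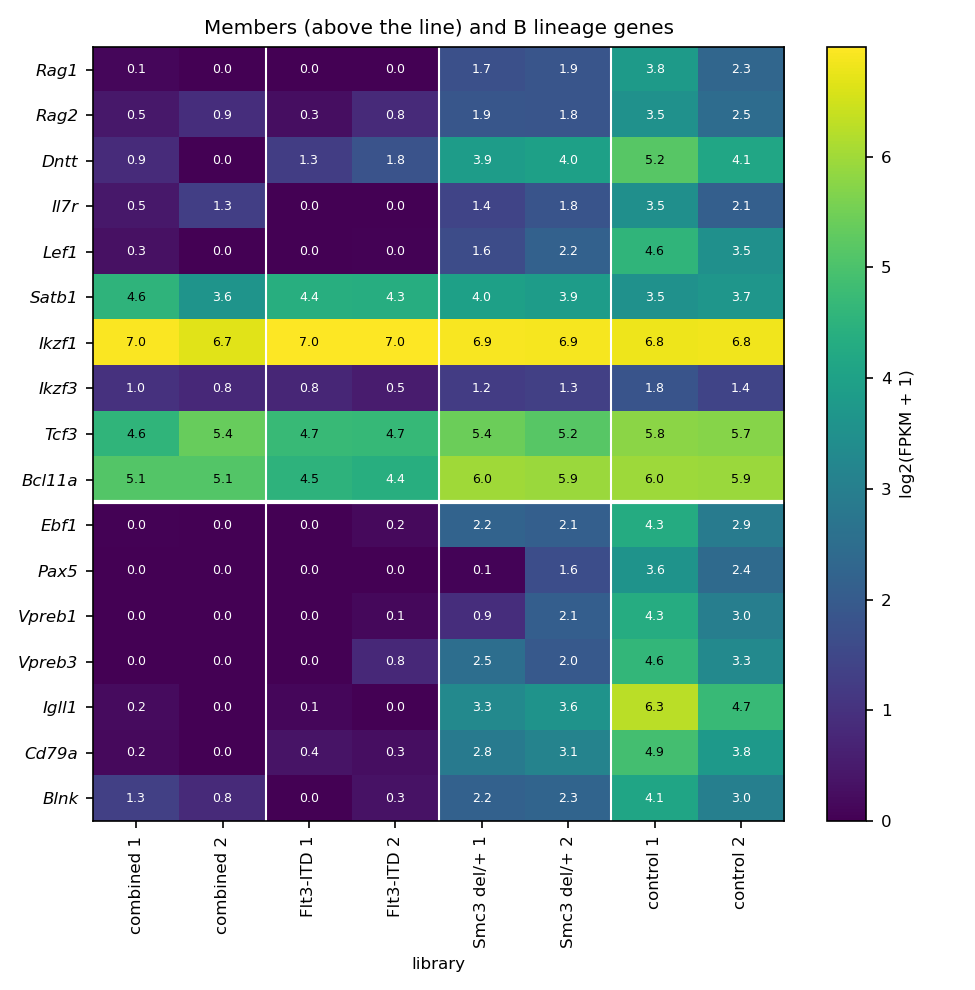
Level as log2(FPKM + 1), by colour and number, of the 10 genes (above the white line) and 7 B lineage genes (below it) in each of the 8 libraries. The 7 B lineage genes drawn, chosen after their values were seen, were at 0.8 or less in the 4 libraries with Flt3-ITD, except Blnk at 1.3 in combined replicate 1. Others of the list were not near 0 in these 4 libraries, such as Cd79b at 4.68 to 9.53 FPKM and Bank1 at 3.95 to 8.16 FPKM. Satb1, Ikzf1, Tcf3 and Bcl11a were at 3.5 or more in all 8.

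Related genes were taken from lists set by role, with results known. Their counts stand beside 9.50% of all genes called lower and 8.51% higher in Flt3-ITD against control, and 6.38% lower and 5.41% higher in the combined group. Of 23 tested genes of the pre-B cell receptor and B lineage, 14 were lower in Flt3-ITD than in control and 1 (Syk) higher. Igll1, the surrogate light chain, gave -5.44 ± 0.451 and Cd79a, a signalling chain of the B cell receptor, -4.01 ± 0.358 on the log2(FPKM + 1) scale (adjusted p = 0.00101 and 0.00125, limma). In the combined group 12 of the 23 were lower and 0 higher, and in Smc3 del/+ 0 passed, with an all-list median of -0.87.

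The general machinery that joins DNA ends showed few calls. Of its 16 genes, 3 were lower in Flt3-ITD. Xrcc5 and Xrcc6, the Ku subunits that bind broken ends, fell by 1.70 ± 0.392 and 0.85 ± 0.233, and Aplf, an end-joining scaffold, fell by 1.29 ± 0.228 (adjusted p = 0.0259, 0.0427 and 0.0108, limma). Xrcc5 was at 3.47 and 10.1 FPKM in combined mice, 5.08 and 3.43 in Flt3-ITD, 16.4 and 13.8 in Smc3 del/+ and 15.5 and 16.2 in controls. In the combined group only Xrcc4, a ligase partner, passed, and it was higher (1.01 ± 0.248, adjusted p = 0.0399, limma).

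IL-7 receptor signalling genes, of which 15 were tested, gave 2 higher calls and 1 lower in Flt3-ITD, a share near the 18.0% called over all genes. Stat5a, the transducer of the receptor, fell by 0.73 ± 0.156 (adjusted p = 0.0204, limma). Pik3cd rose by 0.54 ± 0.126 and the feedback inhibitor Socs1 by 0.92 ± 0.245 (adjusted p = 0.0272 and 0.0399, limma). In the combined group against control, 3 of the 15 were higher (Pik3cd, Socs1 and Cish) and 1 lower (Stat5a), against 11.8% of all genes either way. With Flt3-ITD averaged over both Smc3 labels, 6 were higher and 1 lower, against 23.8% of all genes either way. Il2rg, the common gamma chain that pairs with Il7r, was at 34.3 and 39.5 FPKM in combined mice, 26.3 and 44.9 in Flt3-ITD, 36.3 and 38.5 in Smc3 del/+ and 26.8 and 29.5 in controls. It was thus abundant in the libraries where Il7r was listed at 0.

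Among 10 tested partners and inhibitors of E proteins, 3 were higher and 3 lower in Flt3-ITD. The inhibitor Id1 rose by 1.54 ± 0.311 and the cofactor Lmo4 by 0.93 ± 0.125, while Tal1, an E protein partner of red cell and megakaryocyte progenitors, fell by 2.55 ± 0.237 and Ldb1 by 1.05 ± 0.153 (adjusted p = 0.0169, 0.00445, 0.00140 and 0.00557, limma). Id2, a further inhibitor, also passed and was higher. The ratio of Tcf3 to Id2 in FPKM was 0.201 and 0.209 in combined mice, 0.153 and 0.191 in Flt3-ITD, 0.635 and 0.587 in Smc3 del/+ and 0.837 and 0.718 in controls. All 4 libraries with Flt3-ITD lay below all 4 without it. In combined replicate 2, the library that stood apart, the Tcf3 level overlapped Smc3 del/+ and Id2 was at 191 FPKM. Id2 was chosen after its values were seen, so the ratio is a description and adds nothing to the Tcf3 result.

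The relatives of Ikzf1 and Lef1 gave little. Of 15 tested genes of the Ikaros family and its NuRD partner complex, 1 was lower in Flt3-ITD, Mta3 (-1.10 ± 0.184, adjusted p = 0.00904, limma), and 0 passed in the combined group. Of 12 tested genes of the TCF and LEF family and its beta-catenin partners, 0 passed in either comparison, and Tcf7l2 had the smallest p in Flt3-ITD (-0.84 ± 0.247, adjusted p = 0.0537, limma).

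Other lymphoid genes went both ways. Of 18 further lymphoid transcription factors tested, 7 were higher in Flt3-ITD (Sfpi1, Ets1, Irf8, Notch1, Fli1, Hhex and Nfil3) and 3 lower (Spib, Irf4 and Bach2). Irf8, a factor of both B and monocyte development, rose by 1.35 ± 0.267, Fli1 by 0.75 ± 0.114 and Ets1 by 0.92 ± 0.167 (adjusted p = 0.0161, 0.00636 and 0.0120, limma). Spib was listed at 0 in both Flt3-ITD mice. Of 15 tested surface and signalling genes of lymphoid-primed progenitors, 6 were higher (among them Ltb, Lsp1, Cxcr4, Cd52 and Coro1a) and 2 lower (Ly6d and Cnn3). Coro1a, an actin regulator of leukocytes, rose by 0.91 ± 0.152 and Ly6d, a mark of B-biased lymphoid progenitors, fell by 2.47 ± 0.378 (adjusted p = 0.00886 and 0.00667, limma). In the combined group 3 of the 18 factors were higher and 0 lower, and 4 of the 15 surface genes were higher and 1 lower.

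For each of the 10 genes, the 2 tested genes with the most similar levels over the 8 libraries were found by Pearson's r of log2(FPKM + 1), as a description of libraries that share their group and their depth. They were Ebf1 (r = 0.996) and Gfra2 for Rag1, Prep and Ddx51 for Rag2, Polr1b (r = 0.995) and Mogs for Dntt, and Serinc3 (r = 0.996) and Pcgf6 for Il7r. For Lef1 they were Cplx2 (r = 0.990) and Chst3, for Bcl11a Lmna (r = 0.990) and Ptch1, and for Ikzf3 Cstf1 and Fam126a. For Tcf3 they were Zfp280d and Rprd1b, for Satb1 Itsn2 and Syne1, and for Ikzf1 Foxm1 and Wash. Ebf1, the factor that specifies the B lineage, was at 0.0244 and 0 FPKM in combined mice, 0 and 0.138 in Flt3-ITD, 3.71 and 3.35 in Smc3 del/+ and 18.8 and 6.45 in controls, so that its controls differed in the same direction as those of Rag1.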

How the data were processed

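Polyadenylated RNA of c-Kit+ cells, bead-selected from bone marrow of individual mice, was sequenced from a directional kit per the labels' protocols. The authors deposited FPKM in 2 tables of 23385 rows, 92 of them ERCC spike-ins; the submitters' processing notes name mm9, TopHat and Cufflinks 2.0.0. Annotation and strand use were not given in the sources used here. Main results used the raw table, and the one normalized further served as an alternative. The 10854 genes averaging 1 FPKM or more over 8 libraries entered limma 3.58.1 (R 4.3.3; variance trend, Benjamini-Hochberg) as log2(FPKM + 1). Group contrasts came from 4 group means (4 residual degrees of freedom), averaged effects from an additive model (5). P-values were not adjusted over the 8 contrasts. The 10 genes and all lists were chosen with earlier results of these data known. Named list genes are the 4 with the smallest p in Flt3-ITD against control and the 2 in other comparisons; Id2, Il2rg, Spib, Blnk and the B lineage genes in the plot, and the replicate ratios, were chosen after their values were seen. Values of some listed genes are not reported here. Promoter windows are from RefSeq (9 of 10 genes matched, not Ikzf3). Alternatives were the normalized table, a pseudocount of 0.1, no filter, upper-quartile scaling, a replicate block, only the 2 groups compared and leaving out each library. Scripts were tested on simulated data.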

Additional observations from a re-analysis of the deposited data

How the results depend on the processing

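Of 416 values of the 10 genes (without Rag1 and Il7r where a size rests on Flt3-ITD mice listed at 0) under alternatives other than leaving out a library, 375 kept their direction and side of the threshold, 7 gained and 21 lost a call, and 13 changed sign; with each library left out these were 495, 19, 53 and 25. In the authors' normalized table the median of all genes against control lay at -0.67 for the combined group, -0.58 for Flt3-ITD and -0.38 for Smc3 del/+, and -0.44 for averaged Flt3-ITD. It gave 4874 calls over all genes in Flt3-ITD against control (106 higher and 4768 lower, where the main table gave 924 and 1031 of 1955), 12 in Smc3 del/+ (main 1; 1 of the 10 genes), 5981 in the combined group against control (main 1279) and 1303 against Smc3 del/+ (main 591). It gave 19 for the interaction (main 4), 5053 for averaged Flt3-ITD (main 2581) and 3 for averaged Smc3 (main 0). Signs turned there for Ikzf1 in Flt3-ITD (-0.36), Satb1 (-0.0839), Ikzf1 (-0.26) and Bcl11a (-0.33) in Smc3 del/+, and Satb1 in the combined group against control (-0.23) and Smc3 del/+ (-0.14). They also turned for the Dntt interaction (0.35), averaged Flt3-ITD on Ikzf1 (-0.40) and averaged Smc3 on Satb1 (-0.25). A pseudocount of 0.1 gave 3 calls in Smc3 del/+ and 5 for combined against Flt3-ITD (main 31), and turned averaged Smc3 on Il7r (0.83) and Ikzf3 (0.0128). No filter gave 3, 9, 385 (combined against Smc3 del/+) and 2 (interaction) calls, and lost Tcf3 in Flt3-ITD (adjusted p = 0.0501, limma). Upper-quartile scaling gave 3 calls in Smc3 del/+ and turned Bcl11a there (-0.0047) and averaged Smc3 on Satb1 (-0.0033). Fits of only the 2 groups compared gave 3603 calls in Flt3-ITD, 22 in Smc3 del/+, and 2, 41 and 2 for the combined mice against Flt3-ITD, control and Smc3 del/+, with 0 of the 10 genes against control (main 6) and 0 against Smc3 del/+ (main 3). Replicate numbers name individual mice and do not pair them; deviations of same-numbered mice correlated between -0.113 and 0.0229 over 6 pairs of groups. With the replicate block, 7 of the 10 genes passed in Flt3-ITD, 3 of all genes passed for combined against Flt3-ITD and 1 for averaged Smc3.

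Leaving out each library gave 3 to 9 of the 10 genes in Flt3-ITD against control, 2 to 8 in the combined group against control, 0 to 5 against Smc3 del/+, 0 to 5 against Flt3-ITD, 0 to 5 for the interaction and 5 to 9 for averaged Flt3-ITD. Over all genes it gave 247 to 4251, 81 to 3427, 14 to 2721, 3 to 3242, 4 to 2051 and 1205 to 4717 calls in that order, 1 to 12 in Smc3 del/+ and 0 to 1 for averaged Smc3. Signs varied in the combined group against Flt3-ITD for Rag2 (-0.16 to 0.43), Lef1 (-0.0191 to 0.29), Satb1 (-0.74 to 0.19) and Tcf3 (-0.13 to 0.66). They varied against Smc3 del/+ for Satb1 (-0.30 to 0.64), Tcf3 (-0.73 to 0.0566) and Ikzf1 (-0.25 to 0.0434), and against control for Ikzf1 (-0.16 to 0.13). They varied for averaged Flt3-ITD on Ikzf1 (-0.0068 to 0.11), averaged Smc3 on Il7r (-0.51 to 0.33), Satb1 (-0.11 to 0.26), Ikzf3 (-0.15 to 0.0864), Tcf3 (-0.32 to 0.0238) and Ikzf1 (-0.0747 to 0.0424), and the Dntt interaction (-0.86 to 0.18). The cause was not tested. A lone mouse left in a group is assumed to vary like the other groups. Depth in reads is unknown, so levels listed at 0 have no floor.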
